A study of Mus musculus with 16 samples.

Results

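The 42 cell cycle and DNA replication genes described here were taken by symbol from the 33641 gene symbols of the deposited tables. They were sorted by known role into 24 mitotic genes, 10 replication genes, 5 G1 cyclin and E2F genes and 3 inhibitors of cyclin-dependent kinases (CDKs). The tables came from C57BL/6J mice at 28 weeks of age, either wild-type or "Adipo-HuR KO", a deletion of HuR confined to adipocytes, and they cover subcutaneous white adipose tissue (scWAT) and the left ventricle of the heart. Elavl1 is the gene of HuR, a protein that binds RNA. The promoter that drives the deletion and the genotype of the wild-type controls beyond that name are not given in the labels. Wild-type scWAT was represented by A5, A7, A8, A12 and A14 (5 mice), and scWAT labelled knockout by A24, A26 and A30 (3 mice). Wild-type heart was represented by 4 mice (A5, A7, A8 and A14) and heart labelled knockout by 4 (A25, A29, A30 and A31), and values below are listed in these orders. The study asks what changes in fat and in heart when fat cells lose HuR.

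A dividing cell commits to replication when D-type and E-type cyclins with their kinases free E2F factors, which switch on the genes of DNA synthesis. The minichromosome maintenance (MCM) helicase opens the DNA, the clamp Pcna holds the polymerases, and ribonucleotide reductase and thymidylate synthase supply nucleotides. Cdk1 with B-type cyclins then drives mitosis, and CDK inhibitors hold the cycle back. Adult cardiomyocytes and mature adipocytes rarely divide, so transcripts of mitosis in such tissues are usually ascribed to stromal, vascular and immune cells. Values below are TPM (transcript abundance scaled for transcript length and to a fixed total per library), so levels may be compared between genes. In whole tissue, more cells of a dividing type cannot be told apart from more RNA per cell.

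The mitotic genes are known for shared promoter elements, and the sequences below show them in members whose values carry the results that follow. RefSeq promoters of build GRCm38.p6 were matched by symbol for 34 of the 42 genes, with 38 promoters in all. Both strands of the 250 bases before the start were searched for the CCAAT box, for the cell cycle homology region (CHR, TTTGAA or TTCGAA) and for E2F sites (TTTGGCGC, TTTGCCGC, TTTCGCGC or TTTCCCGC). Each line gives the 120 bases just before the start, 5′ to 3′ on the strand of the gene, with every match in capitals. ATTGG is CCAAT on the other strand, TTCAAA is TTTGAA on the other strand, and TTCGAA reads the same on both. The Cdk1, Top2a and Ube2c windows lie at chr10:69352913-69353032 (minus strand), chr11:99024190-99024309 (minus) and chr2:164769809-164769928 (plus). Those of Cenpf, Mcm6 and Cdkn1b lie at chr1:189688087-189688206 (minus), chr1:128359706-128359825 (minus) and chr6:134920281-134920400 (plus).
Cdk1: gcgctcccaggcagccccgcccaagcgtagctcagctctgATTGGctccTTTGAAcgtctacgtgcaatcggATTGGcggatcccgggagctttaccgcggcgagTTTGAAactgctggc
Top2a: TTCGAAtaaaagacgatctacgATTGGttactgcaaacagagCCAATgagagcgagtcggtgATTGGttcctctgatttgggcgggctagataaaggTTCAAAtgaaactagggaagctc
Ube2c: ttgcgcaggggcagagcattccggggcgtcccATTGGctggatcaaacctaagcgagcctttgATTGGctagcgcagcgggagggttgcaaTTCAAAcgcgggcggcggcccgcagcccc
Cenpf: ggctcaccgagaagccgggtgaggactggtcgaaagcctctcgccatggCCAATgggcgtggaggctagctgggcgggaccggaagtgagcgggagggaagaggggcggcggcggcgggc
Mcm6: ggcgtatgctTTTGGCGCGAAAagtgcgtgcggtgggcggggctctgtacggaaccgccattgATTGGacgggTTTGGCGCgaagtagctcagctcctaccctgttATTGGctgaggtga
Cdkn1b: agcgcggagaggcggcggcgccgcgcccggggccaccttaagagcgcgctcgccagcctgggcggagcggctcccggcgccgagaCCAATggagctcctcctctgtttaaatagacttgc

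A CCAAT box was found in 19 of 21 mitotic promoters (90.5%) and in 9 of 10 replication promoters (90%), against 33.8% of all 32851 promoters in the table. The CHR was found in 9 of 21 mitotic promoters (42.9%) and 2 of 10 replication promoters (20%), against 17.1% of all promoters, and each of these 11 promoters held a CCAAT box too. E2F sites were found in 3 of 10 replication promoters (30%), in 1 of 21 mitotic promoters (4.76%) and in 1.86% of all promoters. Mcm6 held 3 E2F matches, of which 2 on opposite strands overlap. Among the 5 inhibitor promoters the matches were 2 CCAAT boxes of Cdkn1b, of which the nearer to the start is shown. Cenpf, the mitotic gene whose values went the other way in heart, had 2 CCAAT boxes and no CHR in its 250 bases. The same was found for Ccnb1, the member with the highest ratio in heart, so these matches do not set Cenpf apart. Such matches describe letters, and binding was not measured.

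Some facts of the libraries bear on every result. Elavl1 itself was not lower under the knockout label. It stood at 19.0 to 34.5 TPM in wild-type scWAT and at 36.2 to 42.9 TPM in scWAT labelled knockout, and at 6.66 to 12.6 and 8.45 to 15.9 TPM in the heart groups. Every direction below therefore compares labels, and a lower Elavl1 level under the knockout label was not seen. Adipocyte markers (Adipoq, Plin1 and 6 others) summed to 39004.7 TPM or more in every scWAT library and cardiomyocyte markers (Myh6, Tnnt2 and 6 others) to 16774.1 TPM or more in every heart library. In fibroblast markers heart A29, although labelled knockout, was within the wild-type range (summed 283 TPM, wild-type 230 to 358, A25, A30 and A31 2349.3 to 3494.6). scWAT A26 held lymphocyte transcripts, with 8 B cell markers summed to 595 TPM against 2.77 to 25.4 in the other 7, and 8 T cell markers to 643 TPM against 16.6 to 28.7. Results that rest on these libraries are given with and without them. Mitochondrially encoded genes took 51.9 to 60.6% of the TPM of wild-type hearts and 6.14 to 14.4% of that of wild-type scWAT. Their share was lower in hearts A25, A30 and A31 (46.2, 43.4 and 48.9%) than in every wild-type heart, and 55.7% in A29. With these genes removed before scaling, 0 members again passed in heart, and the median log2 difference of the 42 was 0.82 where that of all genes was 0.11.

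In heart, the summed mitotic transcripts were higher in 3 of the 4 hearts labelled knockout than in any wild-type heart, while A29 had the low levels of the wild-type hearts. The 24 mitotic genes summed to 18.3, 29.3, 31.4 and 37.3 TPM in wild-type hearts, reached 109, 112 and 105 TPM for A25, A30 and A31, and stood at 17.3 TPM in A29. No member passed the main test when A29 was kept. Without it 32 of the 42 passed as higher, against 34.8% of all genes, and 1, Cenpf, as lower, against 4.16%. With A29 kept but libraries weighted by their scatter (limma array weights), 33 passed as higher and 1 as lower, against 43.1% and 22.7% of all genes. These weights are estimated from the same values and lower the part of a library far from its group, so they give no independent support. The fit over all 16 libraries called 1 higher, and the share of all genes in that fit was not computed. By role the mitotic genes led, with a median ratio of 4.41 between the mean of A25, A30 and A31 and the wild-type mean. The median ratio was 2.18 for replication genes, 1.87 for G1 cyclins and E2f1 and 1.87 for CDK inhibitors.

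**Figure D1:**
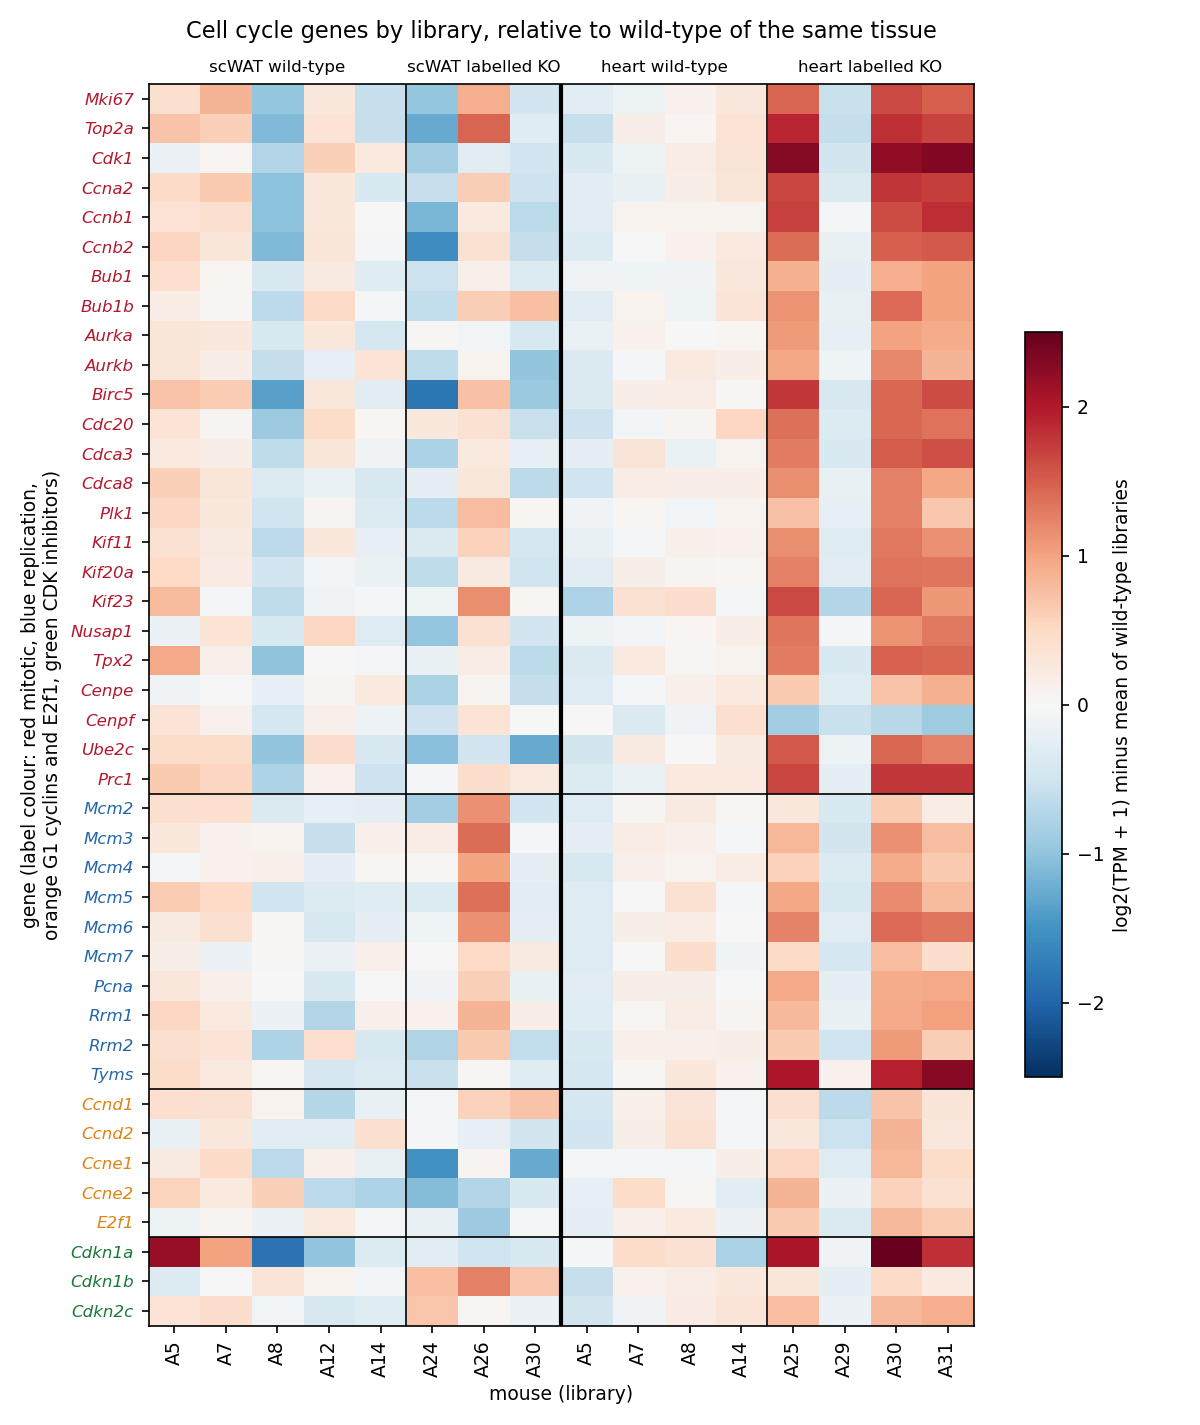
The 42 genes (rows, grouped by role) in the 16 libraries (columns, named by mouse), coloured by log2(TPM + 1) minus the mean of the wild-type libraries of the same tissue. Hearts A25, A30 and A31 are red for nearly all genes, with Cenpf blue, while heart A29 and most scWAT libraries labelled knockout are pale or mixed and scWAT A26 is red for replication genes.

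Mki67, which coats mitotic chromosomes and marks dividing cells, stood at 0.979, 1.15, 1.55 and 1.86 TPM in wild-type hearts against 5.50, 6.43 and 5.69 TPM for A25, A30 and A31 and 0.598 TPM for A29. Top2a, the topoisomerase that untangles replicated DNA, stood at 1.35, 2.95, 2.63 and 3.53 TPM in wild-type hearts against 12.1, 11.5 and 10.3 TPM for A25, A30 and A31 and 1.33 TPM for A29. For both genes A29 was the lowest of the 8 hearts, so the groups as labelled overlapped. Cdk1, the kinase of mitotic entry, stood at 1.11, 1.5, 2.12 and 2.45 TPM in wild-type hearts against 12.5, 11.7 and 12.7 TPM for A25, A30 and A31 and 0.990 TPM for A29. Its partner Ccnb1 (cyclin B1) stood at 0.197, 0.536, 0.531 and 0.530 TPM, at 3.74, 3.44 and 4.17 TPM, and at 0.410 TPM in the same order. The 3 hearts had 6.85 times the wild-type mean of Cdk1 and 8.44 times that of Ccnb1, the highest ratio of any member. Prc1, which bundles microtubules of the central spindle, stood at 1.04, 1.31, 2.08 and 2.07 TPM in wild-type hearts against 7.22, 7.85 and 7.83 TPM for A25, A30 and A31 and 1.20 TPM for A29. Nusap1, a spindle microtubule-binding protein, stood at 0.407, 0.456, 0.577 and 0.709 TPM, at 2.85, 2.35 and 2.82 TPM, and at 0.483 TPM in the same order. Each of these 6 genes was higher in A25, A30 and A31 than in every wild-type heart, as were 45.2% of the 11981 genes tested in heart. Prc1 and Nusap1 were named for a small p in this comparison.

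Cenpf, a large kinetochore and microtubule-associated protein, was the exception among mitotic genes. It stood at 5.02, 3.68, 4.65 and 7.0 TPM in wild-type hearts and at 2.29, 3.08, 2.71 and 2.21 TPM in A25, A29, A30 and A31, and the groups did not overlap. All 4 libraries labelled knockout lay below every wild-type heart for 0.634% of the 11981 genes tested in heart, and for this 1 of the 42 members. All 4 lay above every wild-type heart for 3.71% of the genes and for 0 members. The fitted log2 difference of Cenpf was -0.75 (SE 0.23, limma adjusted p = 0.142), and without A29 it was -0.81 (SE 0.22, adjusted p = 0.0161). Across the 8 hearts the other 23 mitotic genes followed the mean of the remaining mitotic genes with Pearson r of 0.931 or more on the log2 scale, and Cenpf with r = -0.686. These coefficients are descriptions over libraries that share the split between 3 hearts and 5.

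Replication genes followed with smaller differences, apart from Tyms. Tyms, thymidylate synthase, stood at 0.714, 1.37, 1.77 and 1.46 TPM in wild-type hearts against 8.34, 7.83 and 10.1 TPM for A25, A30 and A31 and 1.46 TPM for A29. Mcm6, a subunit of the replicative helicase, stood at 2.09, 3.25, 3.36 and 2.83 TPM, at 8.11, 9.24 and 8.75 TPM, and at 2.16 TPM in the same order. Both separated A25, A30 and A31 from the other 5 hearts, as did 44.6% of the 11981 genes tested in heart. The 3 hearts had 6.58 times the wild-type mean of Tyms and 3.02 times that of Mcm6. Mcm5, of the same helicase, stood at 0.931, 1.40, 2.15 and 1.32 TPM in wild-type hearts against 3.72, 4.47 and 3.19 TPM for A25, A30 and A31 and 0.836 TPM for A29. Mcm2 stood at 1.5, 2.28, 2.67 and 2.21 TPM, at 2.82, 3.86 and 2.56 TPM, and at 1.41 TPM in the same order. Mcm2 was the single replication gene for which A25, A30 and A31 were not all above the wild-type range. The clamp gene Pcna stood at 14.5, 19.8, 19.8 and 18.0 TPM in wild-type hearts against 35.2, 34.9 and 35.4 TPM for A25, A30 and A31 and 15.2 TPM for A29. Rrm1, the large subunit of ribonucleotide reductase, stood at 3.97, 5.29, 5.95 and 5.45 TPM, at 9.77, 10.8 and 11.5 TPM, and at 4.37 TPM in the same order. The small subunit gene Rrm2 stood at 0.708, 1.41, 1.41 and 1.45 TPM, at 2.5, 3.63 and 2.39 TPM, and at 0.578 TPM. The mean Pcna level of the 3 hearts was 35.2 ± 0.25 TPM (SD, n = 3), a ratio of 1.95 to the wild-type mean.

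The G1 genes had the smallest median log2 difference of the 4 roles. Ccnd1 (cyclin D1) stood at 16, 24, 27.7 and 21.5 TPM in wild-type hearts against 29.1, 36.7 and 27.8 TPM for A25, A30 and A31 and 13.6 TPM for A29. Ccnd2 (cyclin D2) stood at 15.6, 24.8, 29.2 and 21.3 TPM, at 27.2, 40.6 and 27.2 TPM, and at 14.9 TPM in the same order. The D-type cyclins, partners of Cdk4 and Cdk6, were near or inside the wild-type range except in A30. Ccne1 (cyclin E1, partner of Cdk2) stood at 0.597, 0.591, 0.615 and 0.826 TPM in wild-type hearts against 1.37, 1.95 and 1.28 TPM for A25, A30 and A31 and 0.319 TPM for A29. Ccne2 (cyclin E2) stood at 1.02, 2.17, 1.36 and 0.897 TPM, at 3.16, 2.46 and 2.01 TPM, and at 1.09 TPM. E2f1, the transcription factor upstream of replication genes, stood at 0.436, 0.850, 1.01 and 0.514 TPM, at 1.64, 1.94 and 1.61 TPM, and at 0.316 TPM. Ccne1, E2f1 and Ccnd1 had A25, A30 and A31 above every wild-type heart, and Ccnd2 and Ccne2 did not. These 3 of 5 stand against 45.2% of the 11981 genes tested in heart, a share not far from theirs.

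Among the inhibitors, Cdkn1a had a ratio near the mitotic median. Cdkn1a, which encodes a CDK inhibitor induced by p53, stood at 8.90, 13.1, 12.4 and 4.93 TPM in wild-type hearts against 41.4, 62.9 and 35.2 TPM for A25, A30 and A31 and 8.60 TPM for A29. Cdkn2c, an inhibitor of Cdk4 and Cdk6, stood at 3.60, 4.94, 6.23 and 6.88 TPM, at 9.61, 10 and 10.8 TPM, and at 4.71 TPM in the same order. Cdkn1b, a CDK inhibitor high in resting cells, stood at 5.54, 9.46, 10.1 and 10.7 TPM, at 10.9, 12.6 and 10.5 TPM, and at 7.19 TPM. Cdkn1a reached 4.72 times the wild-type mean in the 3 hearts, whereas Cdkn1b was within or just above the wild-type range.

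**Figure D2:**
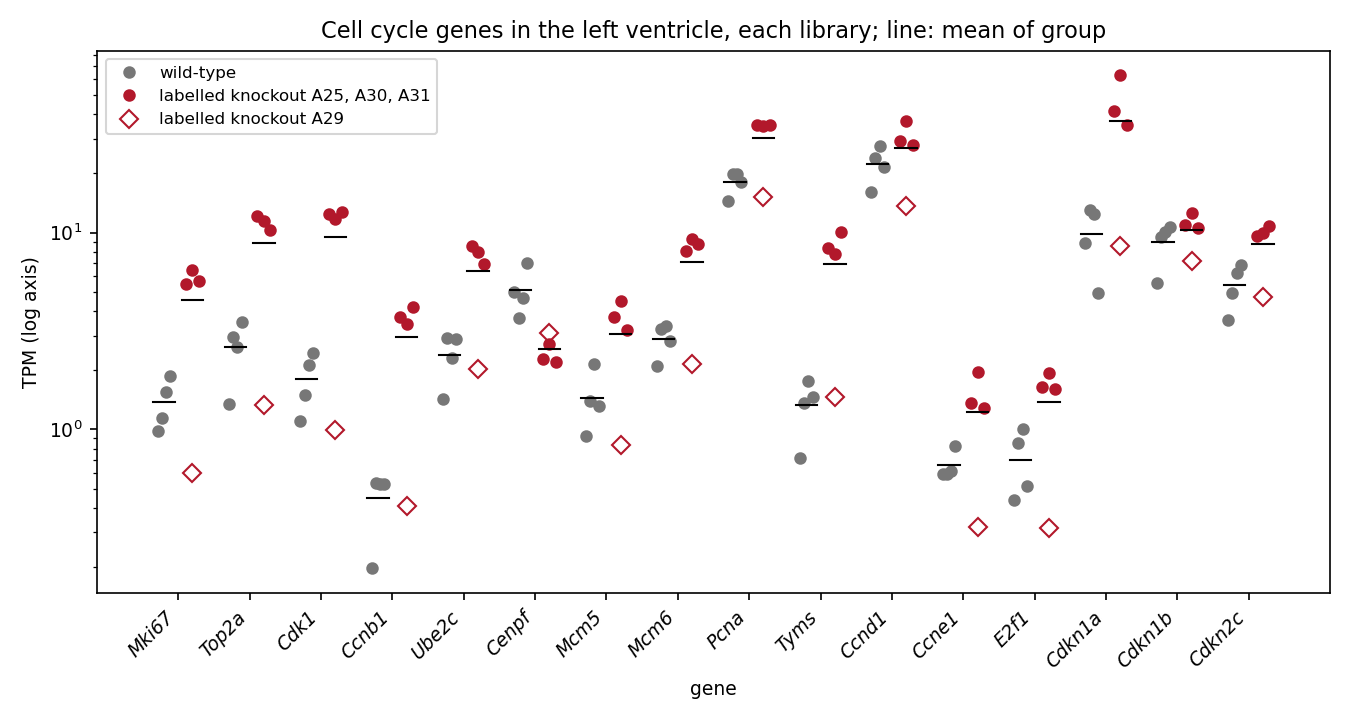
TPM (log axis) of 16 genes in each heart library, with wild-type in grey, A25, A30 and A31 labelled knockout as filled red points, A29 as an open diamond and the mean of each labelled group as a line. A29 lies among or below the grey points for every gene shown, and for Cenpf all 4 red symbols are below the grey points.

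Over all members, A25, A30 and A31 lay above every wild-type heart for 37 of the 42, among them 23 of 24 mitotic genes and 9 of 10 replication genes. That was so for 45.2% of the 11981 genes tested in heart, so much of the transcriptome was higher in these 3 libraries. A29 lay below every wild-type heart for 22 of the 42 members, 13 of them mitotic, against 10.7% of all genes. In heart 38 of the 42 members reached an average of 1 TPM over the 8 hearts and entered the test. Of the 42, 16 had a wild-type mean under 1 TPM, and those of them that entered did so through A25, A30 and A31. Counts of higher members are thus tied to the filter, which was the same for all genes. With all 8 hearts limma called 0 members higher and 0 lower, against 0.0501% and 0% of all genes. Before adjustment, a p under 0.05 was found for 24 higher and 1 lower, against 20.9% and 3.66%. The smallest adjusted p of any member was 0.142, shared by several genes. For Cdk1 the log2 difference was 1.59 (SE 0.56, adjusted p = 0.149), for Tyms 1.59 (SE 0.43, adjusted p = 0.142) and for Cdkn1a 1.60 (SE 0.52, adjusted p = 0.142). The median of all tested genes was itself shifted by 0.26, and the median over the 42 members was 0.77, or 0.51 after that shift was subtracted. Before subtraction 41 of the 42 differences were positive, and 37 exceeded the median of all genes. Relative to that median the mitotic median was 0.68, the replication median 0.35, the G1 median 0.12 and the inhibitor median 0.33. Mcm2, Ccnd1, Ccnd2 and Cdkn1b turned negative under median-of-ratios scaling and under quantile normalization.

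Without A29 the members were called far more often, and so were genes at large. Of 12081 genes tested without it, 4203 were called higher and 502 lower. Of the 42 members 39 were tested, and those called were 20 mitotic genes higher and Cenpf lower, 8 of 10 replication genes, 2 of 5 G1 genes (Ccne1 and E2f1) and 2 of 3 inhibitors (Cdkn1a and Cdkn2c). Ccne1 had been under the filter with all hearts. Both G1 genes had wild-type means under the filter (0.657 TPM for Ccne1, 0.703 TPM for E2f1) and entered through A25, A30 and A31. Their calls are tied to that filter. The log2 difference of Cdk1 was then 2.28 (SE 0.22, limma adjusted p = 7.6e-05) and that of Ccnb1 1.73 (SE 0.17, adjusted p = 8.4e-05). Tyms had 2.08 (SE 0.22, adjusted p = 0.000108), Mki67 1.54 (SE 0.20, adjusted p = 0.000299), Cdkn1a 2.17 (SE 0.32, adjusted p = 0.000678) and Pcna 0.94 (SE 0.16, adjusted p = 0.00166). The members tested and not called were Mcm2, Mcm7, Ccnd1, Ccnd2, Ccne2 and Cdkn1b, with log2 differences from 0.34 to 0.60 against a median of 0.39 over all genes. Leaving out A29 chooses a library by its values, so these counts describe the other 7 hearts and give no independent support to the label.

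Transcripts of fibroblasts and macrophages moved with the mitotic genes in heart. The 8 macrophage markers (Adgre1, Cd68 and others) summed to 32.9 to 52.4 TPM in wild-type hearts, reached 218, 290 and 295 TPM for A25, A30 and A31, and stood at 29.4 TPM in A29. All 8 macrophage and all 8 fibroblast markers were higher in A25, A30 and A31 than in every wild-type heart, against 45.2% of all genes tested. The same held for 3 of 8 endothelial and 4 of 8 T cell markers, shares near that of all genes. T cell markers summed to at most 6.99 TPM in any heart, and markers under the filter were counted too. B cell markers summed to at most 6.70 TPM in any heart, with none of the 8 above the wild-type range in all 3. The part of these cells in the mitotic values was not tested.

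Outside the 42, the other mitotic genes were above the share of all genes, and the other lists were nearer to it. A25, A30 and A31 lay above every wild-type heart for 35 of 39 other mitotic genes, 23 of 38 other replication genes, 12 of 25 other cyclin, CDK, RB and E2F genes and 9 of 15 targets of p53, against 45.2% of all genes tested. These counts include genes under the filter of 1 TPM (15, 14, 8 and 0 in that order), which the share of all genes leaves out. Without A29, limma called 25 of 28 tested other mitotic genes higher, 13 of 26 replication genes, 8 of 17 cyclin, CDK, RB and E2F genes and 6 of 15 p53 targets, against 34.8% of all genes. The p53 target Ccng1 was called lower. With all 8 hearts limma called 0 in any of the 4 lists, and at an unadjusted p under 0.05 it found 15 of 24, 5 of 24, 4 of 17 and 3 of 15 higher in that order and 0 lower, against 20.9% and 3.66% of all genes. The last 3 of these shares are close to that of all genes. The genes below were named for a small p and do not stand for their lists. Anln, anillin of the cleavage furrow, stood at 0.444, 0.755, 1.12 and 1.28 TPM in wild-type hearts against 5.42, 4.17 and 5.36 TPM for A25, A30 and A31 and 0.834 TPM for A29 (limma adjusted p = 0.142). Rfc3, of the complex that loads Pcna, stood at 0.855, 1.68, 1.01 and 2.02 TPM, at 4.61, 3.68 and 3.78 TPM, and at 1.68 TPM (adjusted p = 0.142). The p53 target Phlda3 stood at 3.77, 5.44, 6.91 and 5.28 TPM, at 31.6, 31.8 and 32.5 TPM, and at 4.72 TPM (adjusted p = 0.142). Perp, another p53 target, stood at 43.0, 44.1, 51.0 and 45.3 TPM, at 106, 110 and 91.9 TPM, and at 49.1 TPM (adjusted p = 0.142). In these 4 genes A29 was inside the wild-type range. In Rfc4, of the same loading complex, A29 was at 4.89 TPM, just above the wild-type maximum of 4.78 TPM.

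Pttg1 (securin, which keeps sister chromatids from separating before anaphase) did not follow that split. It stood at 35.7, 4.40, 28.6 and 4.79 TPM in wild-type hearts A5, A7, A8 and A14 and at 53, 64.4, 60.5 and 57.2 TPM in A25, A29, A30 and A31. A29 thus had the highest level of the 8 hearts for this gene. A5 and A8 were also the highest wild-type mice in scWAT, with 38.7, 6.11, 41.9 and 8.01 TPM in A5, A7, A8 and A14 and 16.3 TPM in A12. scWAT labelled knockout had 69.3, 76.9 and 78.6 TPM. The log2 difference was 2.14 in heart (SE 0.57, limma adjusted p = 0.142) and 2.08 in scWAT (SE 0.59, adjusted p = 0.219), and neither passed.

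In scWAT no member passed the test, and both the mitotic and the replication sums overlapped between the labels. The 24 mitotic genes summed to 116, 106, 38.9, 102 and 70.3 TPM in wild-type scWAT and to 43.3, 116 and 54.1 TPM for A24, A26 and A30. The 10 replication genes summed to 159, 142, 124, 98.4 and 125 TPM and to 117, 220 and 118 TPM. A26 thus had the highest replication sum and a mitotic sum level with the highest wild-type library, while A24 and A30 lay inside the wild-type range of both sums. The members with the smallest p were Cdkn1b, higher under the label, and Ube2c and Ccne1, lower.

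**Figure D3:**
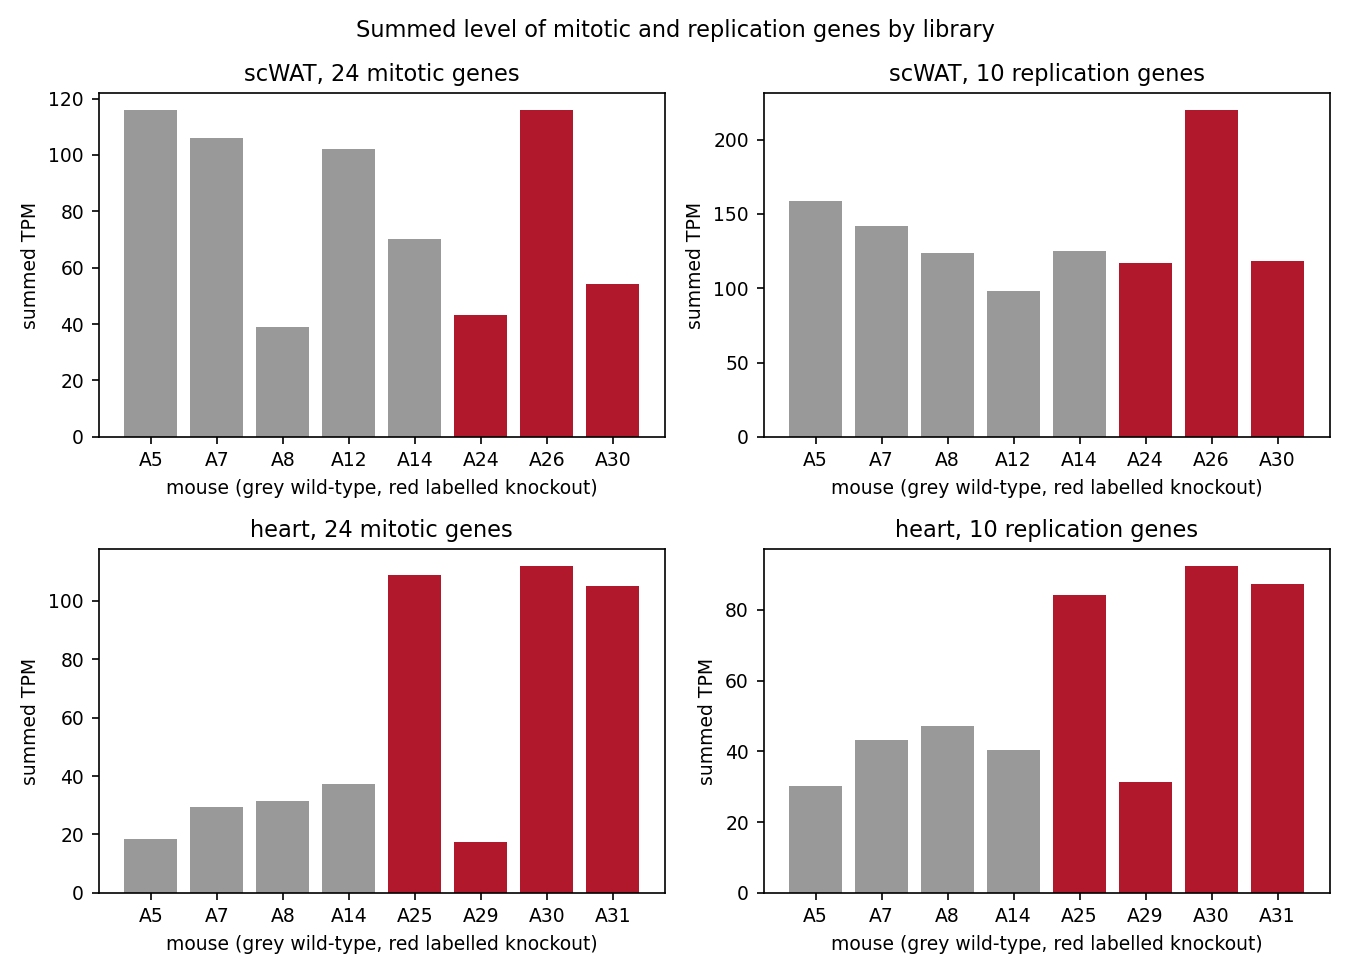
Summed TPM of the 24 mitotic genes (left) and the 10 replication genes (right) in each scWAT library (top) and heart library (bottom), wild-type in grey and labelled knockout in red. The 3 tall heart bars at 105 to 112 TPM (left) and 84.2 to 92.4 TPM (right) are A25, A30 and A31, and the tallest scWAT replication bar at 220 TPM is A26.

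Among mitotic genes in scWAT, Mki67 stood at 4.13, 5.96, 0.984, 3.68 and 1.61 TPM in wild-type libraries against 0.986, 6.22 and 1.79 TPM for A24, A26 and A30. Top2a stood at 8.64, 7.88, 1.74, 6.41 and 2.94 TPM and at 1.43, 15 and 3.76 TPM. For both genes A26 was the highest of the 8 libraries, and the other 2 lay inside or just below the wild-type range. Cdk1 stood at 10.6, 12.2, 6.72, 18.4 and 14.1 TPM and at 6.03, 9.75 and 8.14 TPM. Ccnb1 stood at 2.86, 2.99, 0.483, 2.64 and 2.02 TPM and at 0.364, 2.60 and 0.892 TPM. Wild-type A8 was low for each of these 4 genes, so the wild-type range spanned most of the labelled knockout values. Ube2c, the ubiquitin-conjugating enzyme of the anaphase-promoting complex, stood at 14.9, 15, 4.87, 14.7 and 7.91 TPM and at 4.61, 7.32 and 3.83 TPM. Its log2 difference of -0.93 (SE 0.37) did not pass (limma adjusted p = 0.284). Aurkb, a kinase of chromosome segregation, stood at 4.22, 3.76, 1.81, 2.69 and 4.35 TPM and at 1.75, 3.51 and 1.15 TPM. Ccnb2 (cyclin B2) stood at 3.98, 3.25, 0.604, 3.29 and 2.38 TPM and at 0.183, 3.48 and 1.28 TPM. The groups overlapped for all 7 genes.

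Replication genes in scWAT were highest in A26. Mcm2 stood at 5.08, 5.18, 2.60, 3.0 and 2.89 TPM in wild-type libraries against 1.52, 9.25 and 2.32 TPM for A24, A26 and A30. Mcm3 stood at 8.97, 7.87, 7.73, 4.53 and 8.03 TPM and at 8.46, 20.8 and 7.04 TPM. Mcm5 stood at 6.98, 6.32, 2.68, 3.10 and 3.19 TPM and at 3.09, 12.5 and 3.23 TPM. A26 was the highest of the 8 libraries for each of these helicase subunits. Mcm7 stood at 25.6, 20.8, 23.8, 20.9 and 25.3 TPM and at 23.3, 33.0 and 27.4 TPM. Pcna stood at 60.4, 53.8, 48.8, 37.5 and 49.6 TPM and at 46.3, 74.8 and 43.2 TPM. Rrm1 stood at 17.7, 14.5, 10.8, 6.91 and 13.3 TPM and at 13.1, 22.5 and 13.8 TPM. Rrm2 stood at 3.99, 3.77, 1.23, 4.06 and 1.89 TPM and at 1.26, 4.99 and 1.47 TPM. A26 exceeded the other 7 libraries in 9 of the 10 replication genes, Tyms being the exception, and in 7 of the 24 mitotic genes, against 24.5% of the 13682 genes tested in scWAT. The same library held the B and T cell markers named above, all 16 of them highest there, and their part in its replication values was not tested.

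Among G1 genes in scWAT, Ccne1 stood at 8.11, 9.83, 3.96, 7.51 and 5.86 TPM in wild-type libraries against 1.73, 7.13 and 2.24 TPM for A24, A26 and A30. Ccne2 stood at 7.51, 5.84, 7.73, 2.68 and 2.38 TPM and at 1.71, 2.45 and 3.40 TPM. The log2 differences of -0.90 (SE 0.38, limma adjusted p = 0.302) for Ccne1 and -0.74 (SE 0.37, adjusted p = 0.359) for Ccne2 did not pass. Without A26, Ccne1 was at -1.39 (SE 0.29, adjusted p = 0.110). E2f1 stood at 6.79, 7.93, 6.71, 9.05 and 7.26 TPM and at 6.43, 3.53 and 7.33 TPM, with A26 as the lowest. Ccnd1 stood at 17.2, 16.9, 13.5, 7.36 and 11.1 TPM and at 12.4, 19.5 and 21.3 TPM. Ccnd2 stood at 79.9, 111, 75.7, 75.7 and 120 TPM and at 88.6, 78.4 and 65.2 TPM. The groups overlapped for these 5 genes.

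Cdkn1b was the single member whose scWAT groups did not overlap. All 3 libraries labelled knockout lay above every wild-type library for 5.23% of all genes tested, a share that 1 of 42 members does not exceed. Cdkn1b stood at 9.77, 12.8, 16.1, 13.5 and 12.1 TPM in wild-type libraries against 22.2, 31.6 and 20.8 TPM for A24, A26 and A30. The means of 12.9 ± 2.31 TPM (SD, n = 5) and 24.9 ± 5.88 TPM (n = 3) gave a ratio of 1.94. The log2 difference was 0.90 (SE 0.19, limma adjusted p = 0.216), and 0.72 (SE 0.19, adjusted p = 0.246) without A26. Skeletal muscle markers, summed over 8 genes, stood at 53 to 772 TPM in wild-type scWAT and at 3652.8, 290 and 7163.3 TPM for A24, A26 and A30, and their part in the Cdkn1b value was not tested. Cdkn1a stood at 230, 102, 13.3, 24.8 and 39.2 TPM in wild-type libraries against 41.1, 35.5 and 38.3 TPM in those labelled knockout. The wild-type mice thus ran from 13.3 to 230 TPM in Cdkn1a, and the 3 libraries labelled knockout lay within that range. Cdkn2c stood at 204, 218, 153, 122 and 131 TPM and at 260, 167 and 146 TPM, with overlapping groups.

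Of the 42 members 39 were tested in scWAT and limma called 0 higher and 0 lower, against 0.0146% and 0.00731% of the 13682 genes. Before adjustment, p was under 0.05 for 1 higher and 2 lower members, against 8.11% and 7.52%. All 3 libraries labelled knockout lay above every wild-type library for 1 member and 5.23% of genes, and below for 0 members and 5.06% of genes. The median log2 difference was -0.21 over mitotic genes and 0.25 over replication genes, where the median of all genes was 0.03. Without A26 the replication median was -0.16 and the mitotic median -0.52. In that fit limma again called 0 members in either direction, against 0.923% of 13430 genes higher and 0.0447% lower. Before adjustment, 7 members then had a p under 0.05 as lower, against 4.03% of genes, and 1 as higher, against 6.06%. Of the other pathway lists, 0 genes passed in scWAT. An unadjusted p under 0.05 was found for 2 higher and 2 lower of 28 tested mitotic genes. For replication genes it was 0 higher and 4 lower of 35. The cyclin, CDK, RB and E2F genes had 1 higher and 0 lower of 22, and the p53 targets 0 higher and 1 lower of 14. The shares of all genes were 8.11% higher and 7.52% lower. Gins2, of the helicase complex, had the smallest p among replication genes. It stood at 11.2, 11.8, 8.27, 17.4 and 12.4 TPM in wild-type libraries against 7.40, 4.97 and 6.48 TPM in those labelled knockout, without overlap (limma adjusted p = 0.216).

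**Figure D4:**
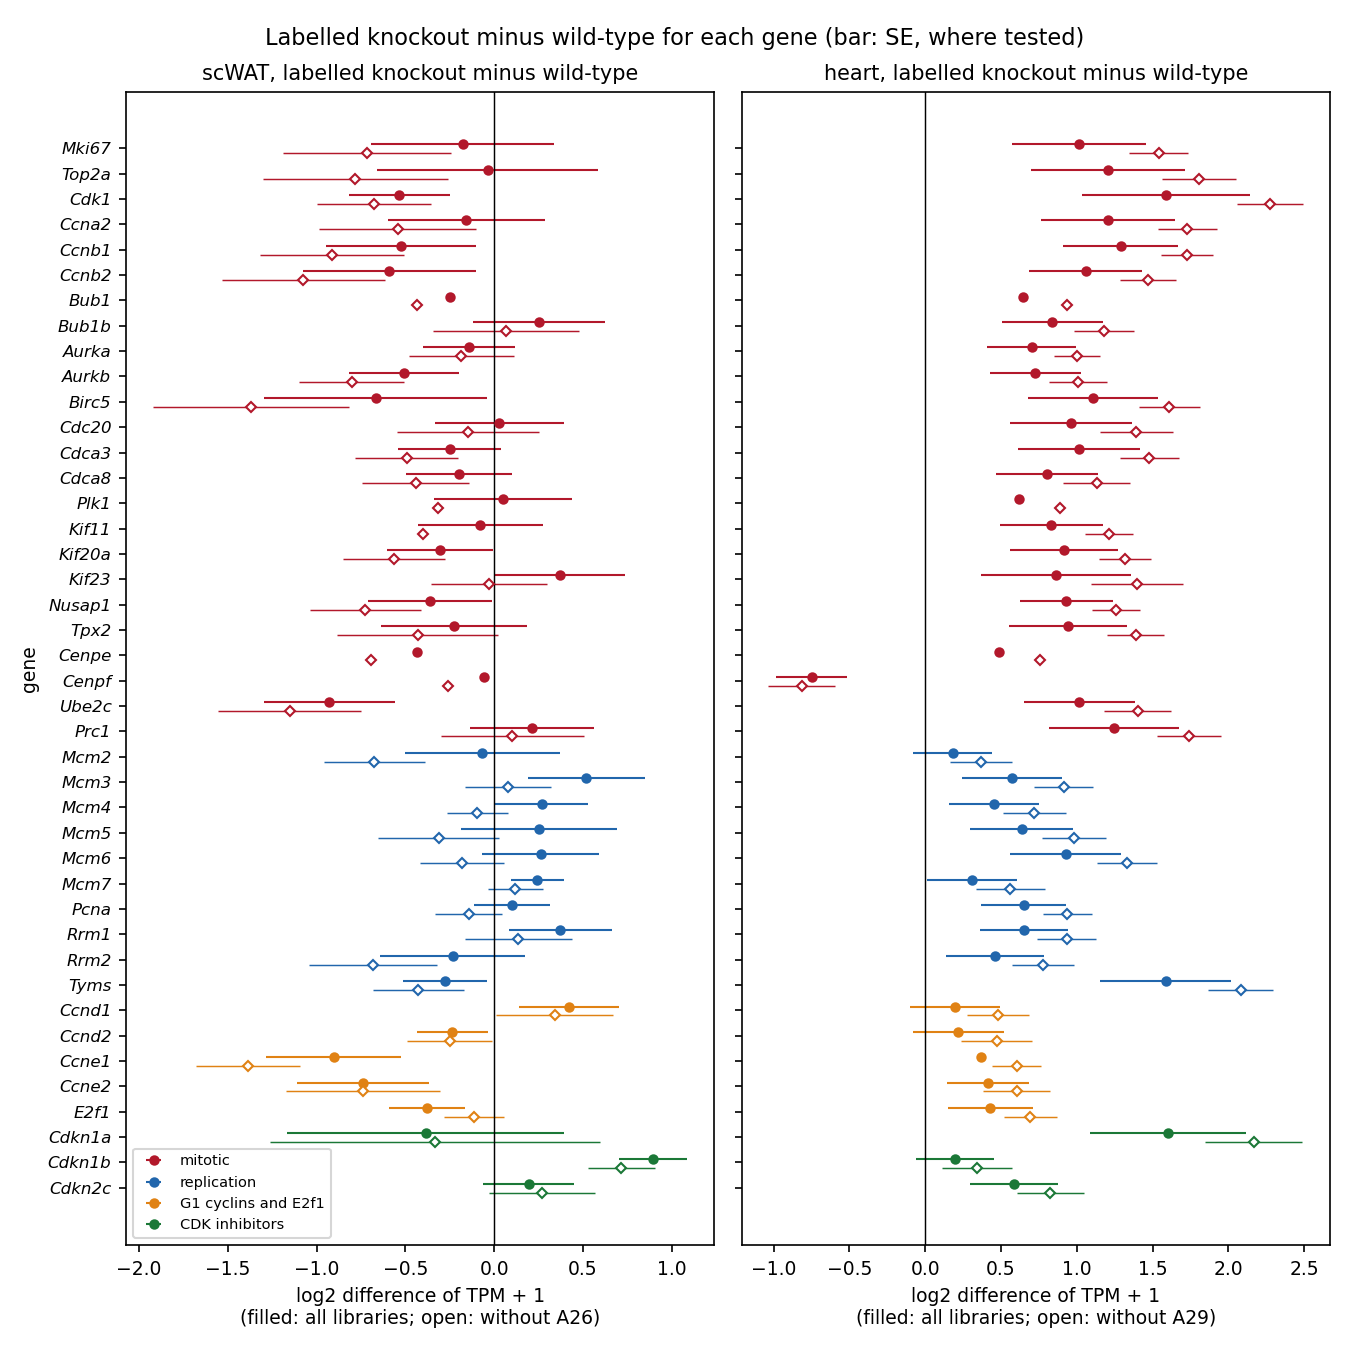
Log2 difference of TPM + 1, labelled knockout minus wild-type, for each of the 42 genes in scWAT (left) and heart (right), coloured by role, with bars for the SE where the gene was tested. Filled points use all libraries and open points leave out A26 or A29. Heart points lie right of 0 except Cenpf, and leaving out A26 moves most scWAT points to the left.

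An interaction term over all 16 libraries asked whether heart and scWAT differed in how far the labels lay apart. No member passed, with 0 called higher in heart than in scWAT and 0 lower, against 0.00867% and 0.052% of 11536 genes. Before adjustment, limma gave a p under 0.05 for 14 higher and 1 lower, against 17% and 3.42%. The 14 included 11 mitotic genes, and the lower one was Cdkn1b. The interaction was 1.95 for Ube2c (SE 0.54, adjusted p = 0.0898), 1.87 for Tyms (SE 0.53, adjusted p = 0.0935), 2.13 for Cdk1 (SE 0.69, adjusted p = 0.116) and -0.70 for Cdkn1b (SE 0.32, adjusted p = 0.233). Without heart A29, a library left out for its values, 22 members were called higher and 0 lower, against 22.4% and 2.27% of 11624 genes, with 2.81 for Cdk1 (limma adjusted p = 0.000142). With array weights, again estimated from the values, and all libraries, 28 were called higher and 1 lower, against 30% and 15.6% of genes. A30 was the single mouse labelled knockout that gave both tissues. Its mitotic genes summed to 54.1 TPM in scWAT, within the wild-type scWAT range of 38.9 to 116, and to 112 TPM in heart, above the wild-type heart range of 18.3 to 37.3.

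In wild-type mice most members stood higher in scWAT than in heart, as most genes did. The group means of the 42 genes ran from 0.481 TPM (Bub1) to 166 TPM (Cdkn2c) in scWAT, with a median of 4.82, and from 0.306 TPM (Bub1) to 22.7 TPM (Ccnd2) in heart, with a median of 1.37. In scWAT the order from the top was Cdkn2c (166 ± 43.0 TPM, SD, n = 5), Ccnd2 (92.5 ± 21.4), Cdkn1a (81.8 ± 89.5), Pcna (50.0 ± 8.37) and Mcm7 (23.3 ± 2.33). Cdkn1a had a spread that overlapped both of its neighbours in that order. In heart Ccnd2 (22.7 ± 5.75 TPM, n = 4), Ccnd1 (22.3 ± 4.90) and Pcna (18.0 ± 2.48) led and overlapped each other, followed by Cdkn1a (9.84 ± 3.75) and Cdkn1b (8.96 ± 2.34). The lowest means in both tissues belonged to mitotic genes, with 14 of the 24 under 1 TPM in wild-type heart and 2 in wild-type scWAT.

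Cdkn2c differed most between tissues, at 122 to 218 TPM in wild-type scWAT and 3.60 to 6.88 TPM in wild-type heart, a ratio of means of 30.6. The log2 difference, heart minus scWAT, was -4.69 (SE 0.22, limma adjusted p = 1.3e-09), or -3.43 after the median of all genes, -1.27, was subtracted. By the ratio of means E2f1 and Ccne1 followed, each at 10.7. Their differences relative to that median were -1.07 for E2f1 (limma adjusted p = 7.7e-08) and -0.97 for Ccne1 (adjusted p = 1e-06). Those of Cenpf and Ccnd1, given next, were larger in size. Cenpf went the other way, at 0.156 to 0.979 TPM in scWAT and 3.68 to 7.0 TPM in heart. Its difference was 1.93 (SE 0.21, adjusted p = 2.7e-06), or 3.20 relative to the median. Ccnd1 was at 7.36 to 17.2 TPM in scWAT and 16 to 27.7 TPM in heart, with a difference of 0.74 (SE 0.24, adjusted p = 0.0118), or 2.01 relative to the median.

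**Figure D5:**
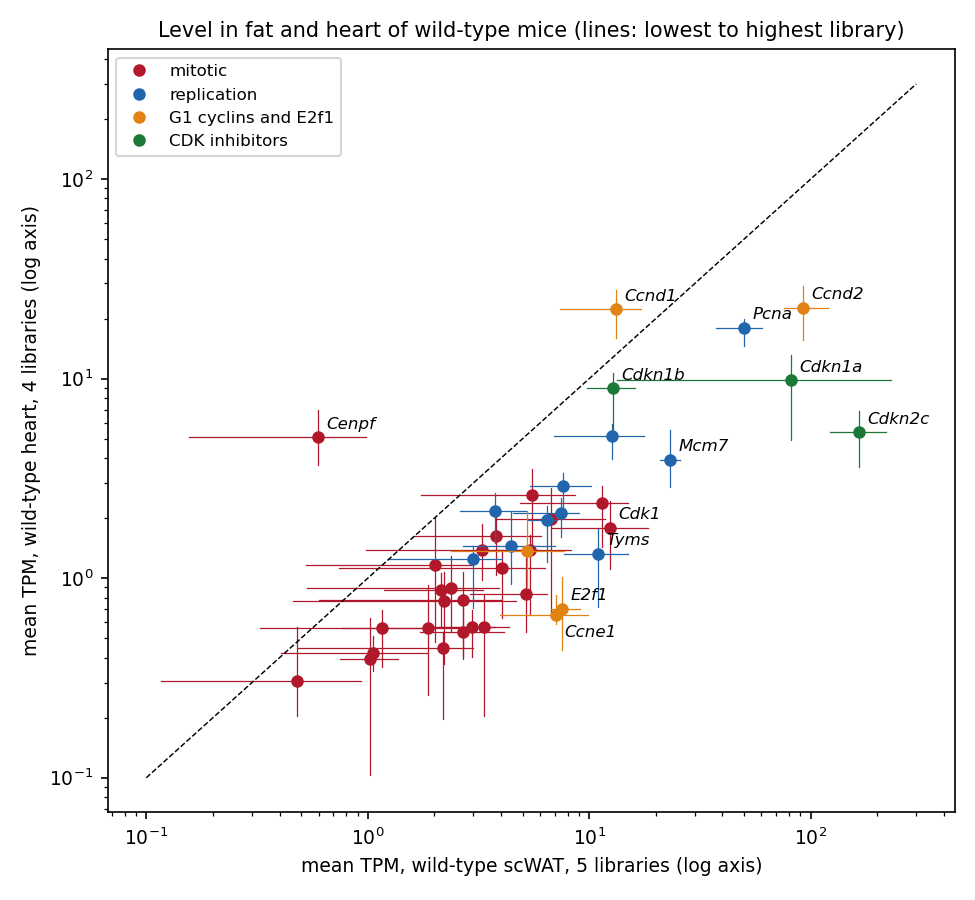
Mean TPM of each of the 42 genes in wild-type scWAT (horizontal, 5 libraries) and wild-type heart (vertical, 4 libraries), both log axes, with thin lines from the lowest to the highest library and a dashed line of equal level. Nearly all genes lie below the dashed line, Cdkn2c farthest, and Cenpf and Ccnd1 lie above it.

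Limma called 33 of the 42 members lower in heart and 2 higher (38 tested), against 78.5% of 13093 genes lower and 8.12% higher. Every heart lay below every scWAT library for 24 members and 73.2% of genes, and above for 1, Cenpf, and 6.74% of genes. The median over the 42 was -1.10, and 24 of them exceeded the median of all genes. Under median-of-ratios scaling 10 members were lower in heart and 4 higher, and the same counts came from quantile normalization. Shares of all genes were not computed under these scalings, so the counts describe the members alone. Cdkn2c, E2f1, Ccne1, Tyms, Mcm7, Cdk1 and Ccnd2 stayed lower and Cenpf and Ccnd1 higher under both, whereas Cdkn1b, at -0.50 (adjusted p = 0.0383) on TPM, turned to 0.84 and 0.83. Mki67 (-0.71, adjusted p = 0.0569) and Top2a (-0.74, adjusted p = 0.0711) did not pass on TPM and had the other sign under both scalings.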

How the data were processed

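RNA from frozen tissue was extracted with Trizol and made into libraries with an Illumina TruSeq kit, per the labels' protocols. The authors deposited 1 table per library, 16 in all from 11 mice, with a TPM value per gene symbol, per the file headers. Which quantifier, annotation and build were used is not given in the sources used here. Since TPM holds no read numbers, depth is unknown and counting intervals were not computed. Each replicate of a group is a separate mouse by its label.

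Each fit used limma 3.58.1 (R 4.3.3; lmFit and trended eBayes) on log2(TPM + 1), a scale that understates changes of low genes, and kept genes averaging 1 TPM or more in its libraries. P-values were 2-sided and adjusted by Benjamini-Hochberg over all genes tested, with a threshold of 0.05. Untested members enter medians and signs as differences of mean log2 values. They also enter counts of libraries lying above or below others, whereas the shares beside those counts cover tested genes only. The filter averages all libraries of a fit, so a gene can enter through the libraries where it is high. The scripts were tested on simulated data. The members, gene lists and tests were chosen with earlier results of these data known. The genes chosen for values in every library were Mki67, Top2a, Cdk1, Ccnb1, Mcm2, Mcm5, Pcna, Rrm2, all G1 genes and inhibitors, up to 3 more per role and tissue by smallest p, and genes of other pathway lists by smallest p (up to 3 per list and tissue). Gmnn and the comparison of Pttg1 levels across tissues were added after the values were seen. Promoter sequences come from RefSeq (GRCm38.p6). Mouse numbers in the labels tie 5 mice to both tissues. With the mouse as a replicate block the estimated correlation was -0.022 (wild-type tissues) and -0.044 (all libraries). Other alternatives were pseudocounts of 0.25 and 5, no filter or 5 TPM, median-of-ratios or quantile scaling, removal of mitochondrially encoded genes, array weights, robust eBayes, a fit over all 16 libraries, the naming style of the scWAT tables as a covariate, and leaving out each library.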

Additional observations from a re-analysis of the deposited data

Results flagged for a closer look

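Within groups of 4 or 5 libraries, 126 combinations of member and group were examined on the log2(TPM + 1) scale for a library far from the others. Of these, 30 had one. The rule has a nominal rate of about 1 in 20 for independent values. The members move together across libraries, so that rate does not apply to the count, and the share over all genes was not computed. Of the 30, 22 were low values of heart A29 among the 4 hearts labelled knockout. They were Mki67 at 0.598 TPM, Top2a at 1.33, Cdk1 at 0.990, Ccna2 at 0.457, Ccnb1 at 0.410, Ccnb2 at 0.554, Bub1 at 0.110, Aurka at 0.368, Birc5 at 0.589, Cdc20 at 0.662 and Cdca3 at 0.393 TPM. The others were Kif11 at 0.259 TPM, Kif20a at 0.540, Nusap1 at 0.483, Tpx2 at 0.341, Ube2c at 2.03, Prc1 at 1.20, Mcm6 at 2.16, Pcna at 15.2, Tyms at 1.46, E2f1 at 0.316 and Cdkn2c at 4.71 TPM.

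Wild-type heart A5 was far below the other wild-type hearts in Ccnb1 (0.197 TPM), Cdca8 (0.656 TPM), Mcm4 (1.21 TPM) and Rrm2 (0.708 TPM). Wild-type heart A14 was far above them in Bub1 (0.569 TPM) and Ccne1 (0.826 TPM). In wild-type scWAT, A8 was far below the others in Ccnb1 (0.483 TPM) and A12 in Mcm3 (4.53 TPM).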

How the results depend on the processing

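In scWAT 0 members passed under every alternative run, and the median over the 42 ranged from -0.41 to -0.01 when single libraries were left out. In heart, array weights gave 33 members higher and 1 lower, the fit over all 16 libraries gave 1 higher, and leaving out single libraries gave 0 to 32 higher and 0 to 1 lower, the high counts without A29 (median 0.62 to 1.07). For the wild-type tissues, a filter of 5 TPM gave 1 higher and 12 lower, median-of-ratios scaling 4 and 10 (median -0.18), quantile normalization 4 and 10 (-0.17), and removal of mitochondrially encoded genes 16 lower (-0.46). A pseudocount of 5 gave a median of -0.51, and leaving out single libraries gave 2 higher throughout and 26 to 35 lower (median -1.24 to -0.98). For the interaction, array weights gave 28 higher and 1 lower, median-of-ratios scaling 1 and 1, quantile normalization 1 higher, and leaving out single libraries 0 to 22 higher and 0 lower (median 0.79 to 1.24). With the mouse as a replicate block, 2 members were higher and 33 lower between wild-type tissues and 0 passed in the interaction, and no named call changed. The cause of these changes was not tested. Shares of all genes were computed for the main fits and for those without A29 or A26. They were also computed for array weights in heart and in the interaction. The other counts describe the members alone.

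Signs turned as follows. In scWAT a pseudocount of 5 gave 0.038 for Top2a and 0.019 for Mcm2, and array weights gave -0.28 for Mcm5 and -0.13 for Pcna. Leaving out single scWAT libraries gave ranges of -0.72 to 0.22 for Mki67, -0.78 to 0.58 for Top2a, -0.68 to 0.34 for Mcm2, -0.31 to 0.55 for Mcm5, -0.14 to 0.25 for Pcna, -0.68 to 0.021 for Rrm2, -0.84 to 0.16 for Cdkn1a and -0.048 to 0.37 for Cdkn2c. In heart, median-of-ratios scaling and quantile normalization gave -0.055 and -0.090 for Mcm2, -0.11 and -0.081 for Ccnd1, -0.094 and -0.063 for Ccnd2, and -0.095 and -0.074 for Cdkn1b. Between wild-type tissues the same scalings gave 0.23 and 0.25 for Mki67, 0.37 and 0.38 for Top2a, 0.36 and 0.37 for Cdc20, 0.51 and 0.53 for Mcm2, and 0.84 and 0.83 for Cdkn1b. Removal of mitochondrially encoded genes gave 0.042 for Top2a, 0.15 for Cdc20, 0.20 for Mcm2 and 0.44 for Cdkn1b. Depth is unknown, so for members under 1 TPM the counting error cannot be given.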

Other observations

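Gmnn (geminin, which blocks a further start of replication in the same cycle) stood higher in heart than in fat, at 26.5, 30.4, 39.7 and 33.7 TPM in wild-type hearts against 5.35 to 10.7 TPM in wild-type scWAT. Hearts labelled knockout had 29.4, 38.7, 29.6 and 29.6 TPM in A25, A29, A30 and A31. This gene is no member of the 42 and was named after its values had been seen.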
